A study of Mus musculus with 20 samples.

Results

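The question addressed here was whether the Myd88 L252P allele changed gene expression by the same amount in the centroblasts and in the centrocytes of the mouse germinal centre. For each gene the genotype effect, mutant minus control, was taken in each cell type, and the centroblast effect was subtracted from the centrocyte effect. A positive difference therefore means that the mutant-to-control ratio was higher in centrocytes. The contrast needs all 4 groups, so it used 20 of the 20 libraries of the series. Every mouse carried 1 copy of a Cre recombinase at the C gamma 1 locus (Cgamma1Cre +/-), controls and mutants alike. Controls were wild type at Myd88 and mutants were heterozygous for Myd88L252P. The sort gate was B220+FAS+GL7+CXCR4+CD86- for centroblasts (CB). For centrocytes (CC) it was B220+FAS+GL7+CXCR4-CD86+. There were 5 control CB, 5 mutant CB, 5 control CC and 5 mutant CC libraries. The labels gave no age, sex or immunisation. Whether libraries of a group are from different mice is not stated, so the p-values speak of the variation between libraries, which may be technical. Cre at this locus is induced in activated B cells that transcribe it, most of them in germinal centres, and the gene-level values do not show in which share of the sorted cells the allele was recombined.

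MYD88 is the adaptor that couples Toll-like receptors and receptors of the interleukin-1 family to IRAK kinases and NF-kB. L252P is the mouse form of the substitution that is common in human B cell lymphomas, and the altered protein assembles the signalling complex without a ligand. Germinal centre B cells move between the dark zone, where centroblasts divide and mutate their antibody genes, and the light zone, where centrocytes bind antigen, receive help from T cells and are selected. The zones differ in the receptor and T cell signals that reach the cell, which is why an effect of a signalling allele is compared between them.

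Values were TPM, a transcript abundance that allows for length and has 1 fixed sum per library. Effects and differences are given as log2(TPM + 1), and adding 1 makes the changes of low genes look smaller. The test was limma over 4 group means, with Benjamini-Hochberg adjustment over the 11386 genes that reached at least 1 TPM in at least 5 libraries, and a gene was called at an adjusted p under 0.05. Mutant CB libraries 4 and 5 stood apart from the other 18. They held 12719 to 12895 genes above 0, against 13053 to 14092 elsewhere, and cytosolic ribosomal protein genes took 10.45% to 14.5% of their TPM, against 6.145% to 8.361%. They shifted the contrast for genes in general. The median difference over all genes was 0.18 with the 20 libraries, 0.04 without these 2 libraries, and -0.01 when TPM were rescaled by median-of-ratios size factors. The counts and medians, and the values that moved most, are therefore also given without them, and a difference of a single gene is to be read against these medians. Mutant CC 4 and 5 were kept in that fit.

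The genotype effect differed between the cell types for 2 of 11386 genes (0.0176%), Pafah1b3 and Hmces, and for both the mutant-to-control ratio was lower in centrocytes. No gene was called in the positive direction. Before adjustment 1322 genes (11.6%) passed the threshold of 0.05, 1107 positive (9.72%) and 215 negative (1.89%). Rescaled by median-of-ratios, 0 genes were called and 1222 lay under an unadjusted 0.05, 644 positive and 578 negative. Without mutant CB 4 and 5 the counts were 4 called (0.0351%) and 604 unadjusted (5.30%), 354 positive (3.11%) and 250 negative (2.20%). When limma weighted libraries by their scatter (array weights), 9 genes were called (0.079%). With same-numbered libraries of a genotype taken as pairs (replicate block), 14 were called (0.123%) and 2383 lay under an unadjusted 0.05. The labels do not say whether a number marks a mouse. The precision sets what these counts can show. The 95% interval of the difference had a median half-width of 0.44 with 20 libraries and 0.35 without mutant CB 4 and 5. With 20 libraries it lay wholly within 0.5 of 0 for 2894 genes (25.4%) and within 1 for 9125 (80.1%). Leaving out the 2 libraries, these were 6010 (52.8%) and 10275 (90.2%). On the log2(TPM + 1) scale the data thus exclude a difference above 1 in size for most genes, while one of 0.5 was not excluded for most of them with 20 libraries. For low genes the added 1 makes differences and intervals smaller, so this sets no limit on their ratios.

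**Figure D1:**
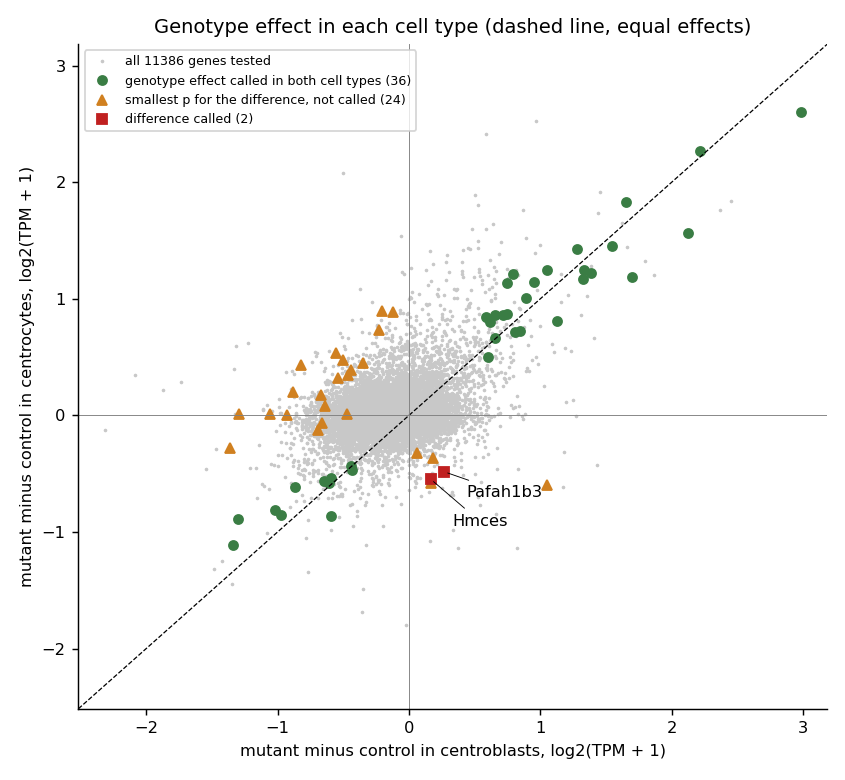
The genotype effect of each gene in centroblasts (x axis) and centrocytes (y axis), mutant minus control in log2(TPM + 1) over 5 libraries per group, with the 2 genes called for the difference as red squares. The 36 genes called for genotype in both cell types (green) lie in the upper right and lower left quadrants near the dashed line of equal effects, and 20 of the 24 genes with the next smallest p (orange triangles) lie above that line.

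Pafah1b3 (GRCm38, chromosome 7, 25295049 to 25297986) encodes a catalytic subunit of the platelet-activating factor acetylhydrolase of type I. Control CB libraries 1 to 5 held 698, 679.7, 835, 801 and 774 TPM, and mutant CB libraries 762, 939, 886, 963 and 1026 TPM. Control CC libraries held 214, 173, 188, 171 and 167 TPM, and mutant CC libraries 125, 132, 139, 135 and 120.3 TPM. In centrocytes all 5 mutants lay below all 5 controls, as for 1.99% of all genes, while in centroblasts the groups overlapped and the mutant mean was the higher one. The genotype effect was 0.27 in centroblasts (adjusted p = 0.0714) and -0.48 in centrocytes (adjusted p = 0.00579), and the difference was -0.75 ± 0.12 (SE, 95% interval -1.01 to -0.50, adjusted p = 0.0241). It was -0.67 (adjusted p = 0.0373) without mutant CB 4 and 5. Pafah1b3 was already lower in centrocytes than in centroblasts, and the fall between the zones was -2.05 in controls and -2.80 in mutants.

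Hmces, listed under its older symbol 8430410A17Rik (chromosome 6, 87913935 to 87936629), encodes a protein that binds abasic sites in single-stranded DNA. It is a numbered gene model under that symbol, so it was named after its values were seen. Control CB libraries 1 to 5 held 1375, 1299.8, 1646, 1568 and 1444 TPM, and mutant CB libraries 1481, 1684, 1583, 1827 and 1647 TPM. Control CC libraries held 577, 519, 509, 555 and 509.6 TPM, and mutant CC libraries 369, 377, 315, 404 and 364 TPM. The pattern was that of Pafah1b3: overlapping groups in centroblasts, and mutants all below controls in centrocytes. The effect was 0.17 in centroblasts (adjusted p = 0.163) and -0.55 in centrocytes (adjusted p = 0.00141), with a difference of -0.71 ± 0.11 (SE, 95% interval -0.95 to -0.48, adjusted p = 0.0241) and of -0.66 without mutant CB 4 and 5 (adjusted p = 0.0282). The step from centroblasts to centrocytes was -1.45 in controls and -2.17 in mutants.

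Both calls sat close to the threshold. With each of the 20 libraries left out in turn, the difference of Pafah1b3 ranged from -0.82 to -0.70 and its adjusted p from 0.00623 to 0.0814, and it was called 10 times. That of 8430410A17Rik (Hmces) ranged from -0.76 to -0.66, with an adjusted p from 0.00763 to 0.0789, and it was called 11 times. Both calls were lost without control CB 1, 2 or 5, mutant CB 2 or 4, control CC 1, or mutant CC 1, 2 or 5, and that of Pafah1b3 also without control CC 3. Under median-of-ratios scaling the differences were larger, -0.97 and -0.93, but the adjusted p was 0.178 for each. With limma's variance trend and robust options off it was 0.0749 for each. Under quantile normalization Pafah1b3 stayed called (-0.68, adjusted p = 0.0251), while 8430410A17Rik (Hmces) lay outside its range above, at -0.58, and was not called (adjusted p = 0.108).

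**Figure D2:**
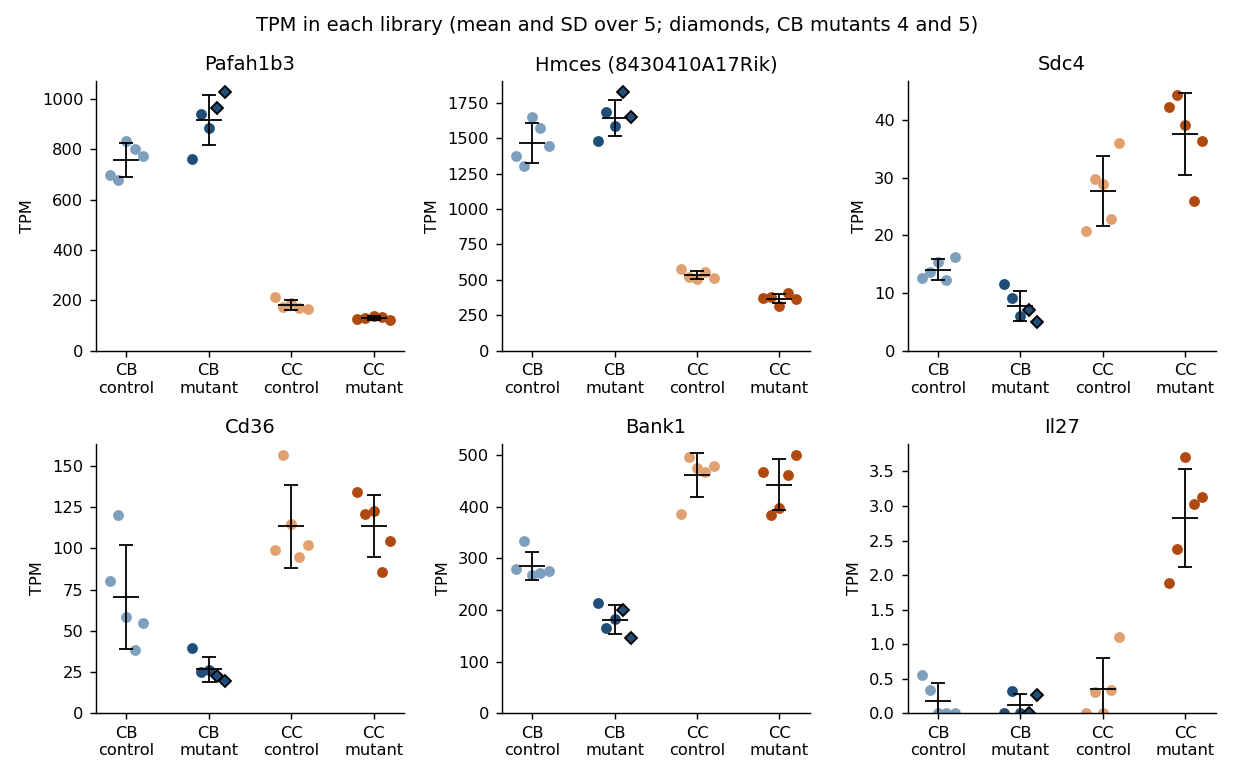
TPM of 6 genes in each of the 20 libraries, with mean and SD over 5 libraries per group and diamonds for mutant CB 4 and 5. In Pafah1b3 and Hmces mutant centrocytes lie below control centrocytes while centroblasts overlap, in Sdc4 and Bank1 mutant centroblasts lie below control centroblasts, and Il27 stands at 1.88 TPM or more only in mutant centrocytes.

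In the main fit no gene met the definition of an opposite effect, which asked for a called difference and effects of opposite sign of at least 0.3 each. Nor did any gene separate mutants from controls without overlap in both cell types in opposite directions. The replicate block did call opposite genes, among them Sdc4, Cd97 and Anxa6 (adjusted p = 0.0248, 0.0248 and 0.0467). Some unpaired alternatives did so too, so the absence holds for the main fit. Pafah1b3, whose centroblast effect of 0.27 lay under the limit of 0.3, was opposite without control CB 3 or mutant CB 1. Its centroblast effect was then 0.31 and 0.33, and the adjusted p of its difference 0.0236 and 0.00623. With array weights AA465934 was called opposite (difference 1.43, adjusted p = 0.026). In the main fit, 86 genes (0.755%) had opposite effects of at least 0.3 at an unadjusted p under 0.05. Of these, 73 were lower in mutant centroblasts and higher in mutant centrocytes, and 13 the reverse. Without mutant CB 4 and 5 there were 46, split 27 and 19, and 29 genes were in both sets. Without these 2 libraries 1 opposite gene passed the adjusted test, the numbered gene model Gm13476, named after its values were seen. Gm13476 held 7.89 to 10.7 TPM in control CB, 4.37, 4.57, 5.41, 6.52 and 10.5 TPM in the mutant CB libraries from lowest to highest, 8.54 to 11.1 TPM in control CC and 11.3 to 13.7 TPM in mutant CC. Libraries 4 and 5 were the 2 highest of the mutant centroblasts. The effects without them were -0.75 in centroblasts (adjusted p = 0.0019) and 0.32 in centrocytes (adjusted p = 0.0978), with a difference of 1.07 (adjusted p = 0.0175). With all 20 libraries the difference of Gm13476 was 0.80 (adjusted p = 0.403) in the main fit. Array weights called it with 20 libraries, though not as opposite (0.97, adjusted p = 0.00523). It was called opposite with mutant CB 5 alone left out (0.98, adjusted p = 0.0401).

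Cxcr4, the dark zone chemokine receptor and a gene of the sort gates, was the other gene called without mutant CB 4 and 5 and not in the main fit. It held 546 to 622 TPM in control CB and 507, 443, 475, 323 and 234 TPM in mutant CB libraries 1 to 5. Control CC held 277 to 324 TPM and mutant CC 147 to 179.9 TPM. Mutants lay below controls without overlap in both cell types, and libraries 4 and 5 were the lowest centroblasts. With 20 libraries the effects were -0.59 in centroblasts (adjusted p = 0.027) and -0.86 in centrocytes (adjusted p = 0.00277), and the difference was -0.27 (95% interval -0.69 to 0.15, adjusted p = 0.472). Without libraries 4 and 5 the centroblast effect was -0.28 and the difference -0.59 (adjusted p = 0.0282), so 2 libraries decided this call. Array weights, which were lowest for these 2 libraries, also called Cxcr4 with all 20 (-0.51, adjusted p = 0.0469). Because CXCR4 protein set the gates, its transcript is not independent of how the cells were chosen.

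Genes that were not called were taken where they averaged 5 TPM or more in 1 group. They also had to have an unadjusted p under 0.05, and a difference of the same sign, both with and without mutant CB 4 and 5. These genes were ranked by their p with 20 libraries. The first 24 are described here, chosen after the values were seen. Their adjusted p for the difference lay between 0.219 and 0.403 in the main fit, so no difference in this set passed there, and 20 were positive and 4 negative. With 20 libraries the replicate block called Sdc4, Cd36, Cd97 and Grap2 of this set, and array weights called Bank1, Ccbp2 and Sept9. In 10 of them the effect was -0.3 or lower in centroblasts and within 0.3 of 0 in centrocytes, in 3 it was 0.3 or higher in centrocytes and within 0.3 of 0 in centroblasts, and in 7 it was lower in centroblasts and higher in centrocytes. The 4 negative genes split into 3 that were lower in mutant centrocytes alone by the same limits, and 1 with opposite effects.

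The first pattern was a lower level in mutant centroblasts with an effect within 0.3 of 0 in centrocytes, which does not show equal levels. It included the decoy chemokine receptor gene Ccbp2 (now Ackr2), the scavenger receptor gene Cd36 and the B cell adaptor gene Bank1. Ccbp2 held 17, 20.7, 11.9, 20.8 and 16.3 TPM in control CB and 10.3, 5.85, 8.57, 8.80 and 5.75 TPM in mutant CB libraries, with no overlap. In centrocytes it held 37.2 to 46.1 TPM in controls and 36.1 to 50.6 TPM in mutants, which overlapped. Its centroblast effect was -1.05 (adjusted p = 0.00109), its centrocyte effect 0.01, and the difference 1.07 ± 0.22 (SE, adjusted p = 0.219, and 1.01 without mutant CB 4 and 5). Cd36 had the largest positive difference of the set, 1.31 ± 0.32 (SE, adjusted p = 0.322), with 38.4 to 120.3 TPM in control CB, 19.5 to 39.5 TPM in mutant CB, 94.6 to 156 TPM in control CC and 85.8 to 134 TPM in mutant CC. Bank1 held 267 to 333 TPM in control CB and 145 to 214 TPM in mutant CB, an effect of -0.66 (adjusted p = 0.00143), against -0.06 in centrocytes. The same pattern was seen in Grap2, an adaptor of antigen receptor signalling, whose effects were -1.36 and -0.28. It was also seen in Il10ra, a subunit of the interleukin-10 receptor (-0.64 and 0.08), in Smad3, a transcription factor of TGF-beta signalling (-0.88 and 0.20), and in Dock10, a guanine nucleotide exchange factor (-0.93 and 0.01). Kmo, an enzyme of tryptophan breakdown, had -0.69 and -0.13, the septin gene Sept9 -0.47 and 0.01, and the transporter gene Mfsd7b (now Flvcr1) -0.67 and 0.17. The centroblast effect of each of these 10 genes was called with 20 libraries, and none of their centrocyte effects was. That of Mfsd7b was -0.42 (adjusted p = 0.154) without mutant CB 4 and 5, and the other 9 were again called.

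In the second pattern mutants were higher in centrocytes, with an effect within 0.3 of 0 in centroblasts. Gdf11, a ligand of the TGF-beta family, held 2.54, 5.60, 2.95, 3.57 and 5.14 TPM in control CC and 8.31, 10.3, 7.70, 6.93 and 6.69 TPM in mutant CC libraries, with no overlap. In centroblasts it stayed under 1 TPM in all 10 libraries, 0.435 to 0.769 in controls and 0.103 to 0.899 in mutants. Its effects were 0.89 in centrocytes (adjusted p = 0.0164) and -0.12 in centroblasts, and the difference was 1.01 ± 0.26 (SE, adjusted p = 0.322). With a pseudocount of 0.1 in place of 1 the difference of Gdf11 was 1.48. Cobll1, which encodes an actin-binding protein, rose in mutant centrocytes by 0.89 (adjusted p = 0.0225) and had an effect of -0.21 in centroblasts. Hs3st1, a sulfotransferase that modifies heparan sulfate, rose in mutant centrocytes by 0.73 (adjusted p = 0.0346), from 18.6 to 29.6 TPM in controls to 30.8 to 41.3 TPM in mutants. Its centroblast effect was -0.22.

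In the third pattern the effects had opposite signs. Sdc4, which encodes the heparan sulfate proteoglycan syndecan-4, held 12.7, 13.7, 15.4, 12.2 and 16.3 TPM in control CB and 11.6, 9.17, 6.09, 7.11 and 4.92 TPM in mutant CB libraries. Control CC held 20.8, 29.7, 29.0, 22.9 and 36.0 TPM, and mutant CC 42.3, 44.2, 39.1, 26.0 and 36.4 TPM. Mutant centroblasts all lay below control centroblasts, whereas the centrocyte groups overlapped. The effects were -0.82 (adjusted p = 0.0197, and 0.0729 without mutant CB 4 and 5) and 0.43 (adjusted p = 0.411), with a difference of 1.25 ± 0.26 (SE, 95% interval 0.71 to 1.80, adjusted p = 0.219). It was 1.06 without mutant CB 4 and 5. Sdc4 was called for an opposite effect when mutant CB 1 was left out (difference 1.40, adjusted p = 0.026), a setting that raised the number of called genes to 7. It was also called opposite with the replicate block (adjusted p = 0.0248). With the block the adjusted p of Sdc4 was 0.0257 without mutant CB 4 and 5 and 0.0491 under median-of-ratios scaling. Cd97 (now Adgre5), an adhesion receptor gene, had effects of -0.55 and 0.53 and a difference of 1.08 ± 0.24 (SE, adjusted p = 0.322, and 0.0248 with the replicate block). Zeb2, a transcription factor of T-bet positive B cells, had -0.51 and 0.47. Rdx, which encodes the membrane-to-actin linker radixin, had -0.54 and 0.32, Eif4e3, a cap-binding protein gene, -0.46 and 0.35, Fam82a1 (now Rmdn2) -0.44 and 0.39, and B3galt6, an enzyme that builds the linker of heparan sulfate chains, -0.35 and 0.45. For these 6 genes neither single genotype effect was called with 20 libraries. Their centroblast effects were smaller without mutant CB 4 and 5, -0.297 for Cd97, -0.33 for Zeb2, -0.40 for Rdx, -0.41 for Eif4e3, -0.26 for Fam82a1 and -0.10 for B3galt6, so that 3 of the 6 no longer reached 0.3 in size. The differences were then 0.83, 0.81, 0.73, 0.75, 0.65 and 0.55 in the same order. In that fit the centrocyte effects of Cd97 and B3galt6 were called (adjusted p = 0.0384 and 0.0246). Those of Zeb2, Rdx, Eif4e3 and Fam82a1 were not.

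Of the 4 genes with a negative difference, that of Snhg9, a host gene of small nucleolar RNA, was the largest in size. It held 3.23, 3.98, 2.17, 2.40 and 1.22 TPM in control CB and 6.17, 5.08, 9.93, 4.03 and 7.12 TPM in mutant CB, with no overlap. Control CC held 4.38, 6.02, 6.08, 2.62 and 3.18 TPM and mutant CC 1.21, 2.29, 2.38, 5.17 and 2.41 TPM, with mutant CC 4 among the controls. The effects of Snhg9 were 1.05 (adjusted p = 0.0319) and -0.59 (adjusted p = 0.457), and the difference was -1.65 ± 0.38 (SE, adjusted p = 0.322). Cdkn3, a phosphatase gene of the cell cycle, fell in mutant centrocytes by 0.58 (adjusted p = 0.0344), from 107 to 149 TPM in controls to 70.5 to 98.6 TPM in mutants. Its centroblast effect was 0.17 with 20 libraries and -0.07 without mutant CB 4 and 5, which held its 2 highest centroblast values (398 and 464 TPM). H2afv, a histone H2A.Z gene, fell by 0.37 in mutant centrocytes (adjusted p = 0.0434) and had 0.19 in centroblasts. Acyp1, an acylphosphatase gene, fell by 0.32 in mutant centrocytes (adjusted p = 0.0294) and had 0.07 in centroblasts.

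In 10 of the 24 genes all mutant centroblasts lay below all control centroblasts, against 2.99% of all genes tested, and in 5 all mutant centrocytes lay above all controls, against 2.63%. These genes had been chosen for the size of the contrast that holds both effects, so the counts describe the set and test nothing. Il27, a subunit gene of interleukin-27, was outside the limit of 5 TPM but had the third smallest adjusted p. It was listed at 0 to 0.559 TPM in control CB, 0 to 0.33 TPM in mutant CB and 0 to 1.1 TPM in control CC, and held 1.88, 2.37, 3.71, 3.02 and 3.13 TPM in mutant CC libraries. Its centrocyte effect was 1.54 (adjusted p = 0.000528), its centroblast effect -0.06, and the difference 1.60 ± 0.29 (SE, adjusted p = 0.0592, and 0.132 without mutant CB 4 and 5). The centroblast level was at or near 0 in both genotypes, so Il27 compares a change in one cell type with values too low to show one in the other.

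**Figure D3:**
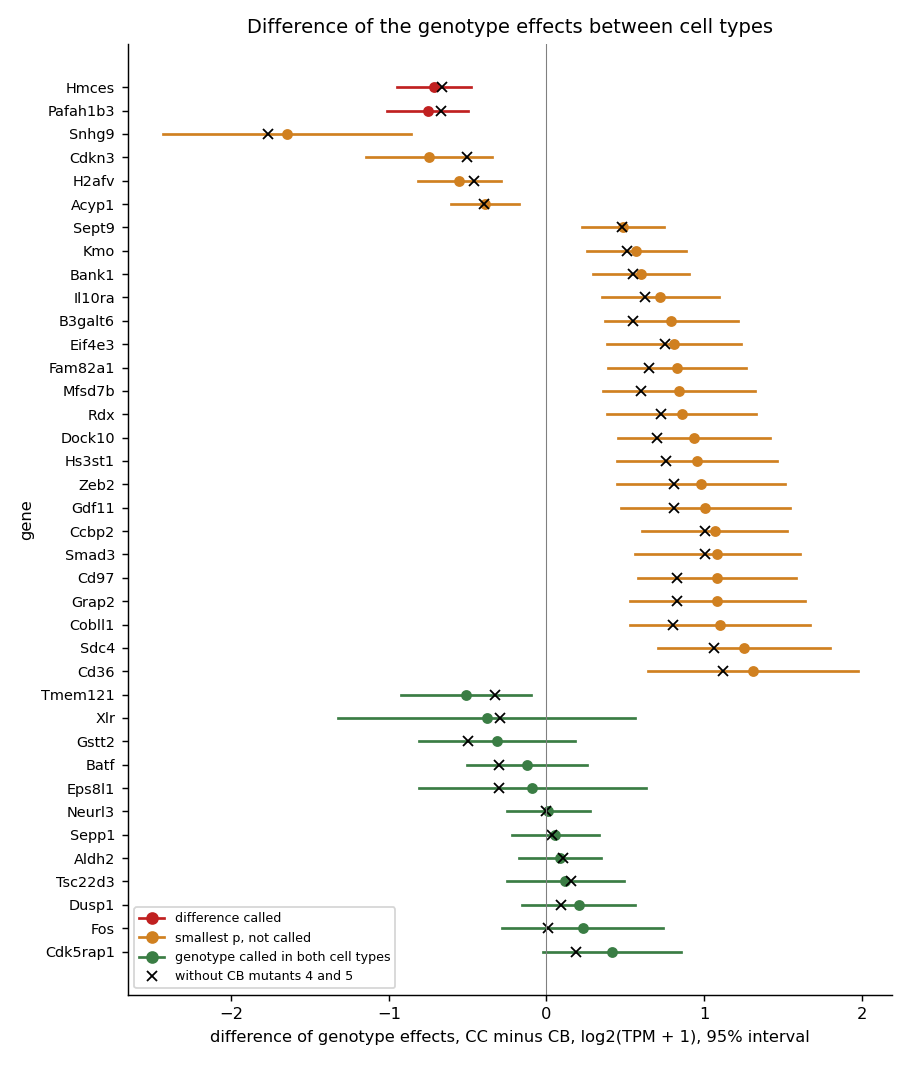
Difference of the genotype effects, centrocytes minus centroblasts in log2(TPM + 1), with its 95% interval from 20 libraries for the 2 called genes (red), the 24 genes next by p (orange) and 12 genes called for genotype in both cell types (green), and crosses for the value without mutant CB 4 and 5. The 24 genes were chosen to have the same sign in both fits, so their crosses keep the sign of the dots by that choice. The intervals of 11 of the 12 green genes cross 0.

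Genes that responded to the allele in both cell types give the other side of the contrast. The genotype effect was called for 488 genes in centroblasts (4.29%) and for 137 in centrocytes (1.20%), and 36 genes (0.316%) were called in both, which is 7.38% of the first set and 26.3% of the second. All 36 had the same direction in both cell types, 25 higher and 11 lower in mutants. Without mutant CB 4 and 5 the counts were 406 and 385 with 129 shared, again all 129 in one direction. Of the 36, the interval of the difference held 0 for 35, lay within 1 of 0 for 28 and within 0.5 of 0 for 8. For these 8 the interval excludes a difference above 0.5, and for the rest it did not. The gene whose interval did not hold 0 with 20 libraries was Tmem121.

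The 12 genes with the smallest larger p of the 2 effects, picked after the values were seen, included 3 of the immediate early or stress response. Fos, a subunit of the AP-1 transcription factor, held 161, 146, 158, 199.9 and 218 TPM in control CB and 66.9, 77.6, 98.0, 56.8 and 51.6 TPM in mutant CB libraries. Control CC held 241, 213, 274, 263 and 299 TPM and mutant CC 81.6, 112, 135, 169 and 111 TPM. Mutants lay below controls without overlap in both cell types, with effects of -1.34 and -1.11 and a difference of 0.23 (95% interval -0.28 to 0.74, and 0.01 without mutant CB 4 and 5). Dusp1, a phosphatase that switches off MAP kinases, fell by 1.02 and 0.81, with a difference of 0.20 (-0.16 to 0.56). Tsc22d3, a glucocorticoid-induced gene, fell by 0.97 and 0.85, with a difference of 0.12 (-0.25 to 0.49). Aldh2, a mitochondrial aldehyde dehydrogenase gene, fell by 0.65 and 0.56, with a difference of 0.09 (-0.18 to 0.35). Sepp1 (now Selenop), a selenoprotein gene, fell by 0.59 and 0.54 (difference 0.06), and Neurl3, a ubiquitin ligase gene, by 0.44 and 0.43 (difference 0.01). Cdk5rap1, a mitochondrial tRNA-modifying enzyme gene, fell by 1.30 and 0.89 (difference 0.42).

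Among the genes that were higher in mutants of both cell types, Batf, an AP-1 factor of activated lymphocytes, rose by 0.85 and 0.72 (difference -0.12, 95% interval -0.50 to 0.26, and -0.30 without mutant CB 4 and 5). Gstt2, a glutathione transferase gene, rose by 1.13 and 0.81 (difference -0.31, -0.81 to 0.18). The difference of Gstt2 was -0.50 without mutant CB 4 and 5, and its interval (-0.97 to -0.03) did not hold 0. Eps8l1, an actin regulator gene, rose by 1.34 and 1.25 (difference -0.09, and -0.30 without these libraries). Xlr, which belongs to a family of near-identical X-linked copies and is uncertain for that reason, rose by 2.99 and 2.61 (difference -0.38, -1.32 to 0.56). Tmem121, which encodes a membrane protein, held 9.70 to 12.5 TPM in control CB, 28.4 to 50.4 TPM in mutant CB, 6.14 to 8.39 TPM in control CC and 14.2 to 20.2 TPM in mutant CC. It rose by 1.70 in centroblasts and 1.19 in centrocytes, and its difference of -0.51 (-0.92 to -0.10) was not called (adjusted p = 0.403). The difference of Tmem121 was -0.32 (-0.67 to 0.03) without mutant CB 4 and 5.

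Gene lists were described by counts and medians, without a list test. Across 27 lists 2 members were called, Pafah1b3 in the dark zone list of 17 tested genes and Hmces in the germinal centre identity list of 27. Counts at an unadjusted p under 0.05 are therefore given beside the background of 9.72% positive and 1.89% negative genes, and medians beside the median of 0.18 over all genes. The memory precursor and T-bet B cell list, which holds genes of B cells leaving the germinal centre for memory and of T-bet positive B cells, had 15 of 24 tested members positive at this level and 0 negative, with a median of 0.71. Without mutant CB 4 and 5 these were 8 positive and 0 negative, against 3.11% and 2.20% of all genes, with a median of 0.48 beside 0.04 for all genes. Rescaled by median-of-ratios the median was 0.52. The difference was positive for 23 of 24 members with 20 libraries, where 75.4% of all genes were positive, and for 18 without mutant CB 4 and 5, where 58.9% were.

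The members of this list reached a positive difference in more than one way. Itgax, which encodes the integrin CD11c, held 0.218 to 0.362 TPM in control CB and 1.52, 0.751, 1.69, 0.320 and 0.324 TPM in mutant CB, with libraries 4 and 5 lowest. Control CC held 0.952 to 2.74 TPM and mutant CC 6.60, 16.8, 17.2, 4.23 and 6.13 TPM, with no overlap. The effects of Itgax were 0.50 and 1.89 (adjusted p = 0.00197 in centrocytes), with a difference of 1.39 ± 0.42 (SE, adjusted p = 0.403) and of 1.07 without mutant CB 4 and 5. Means of Itgax rose from 0.298 to 0.921 TPM in centroblasts and from 1.73 to 10.2 TPM in centrocytes. Changes at levels under 1 TPM are flattened by the added 1, so how far the rise is particular to centrocytes is not shown. With a pseudocount of 0.1 the difference of Itgax was 1.25 (adjusted p = 0.41). Itgam, the integrin CD11b gene, had effects of 0.18 and 1.30 (adjusted p = 0.00197 in centrocytes) and a difference of 1.12. Its control CB values were also under 1 TPM (0.143 to 0.518), and its difference was 1.59 with a pseudocount of 0.1. The chemokine receptor gene Ccr6 had 0.22 and 1.08, and was called in centrocytes (adjusted p = 0.0246). Klf2, a quiescence and migration factor, was instead lower in mutants, with -1.21 in centroblasts (adjusted p = 0.002) and -0.45 in centrocytes. Pdcd1lg2, the PD-L2 gene of memory B cells, had -1.16 (adjusted p = 0.0013) and -0.45. Tbx21, which encodes T-bet, rose in both cell types, by 1.54 and 1.46, and had the only negative difference of the list, -0.09 (95% interval -1.08 to 0.91), which was -0.48 without mutant CB 4 and 5. Il9r, Fcrl5, Cd80, Bach2 and Nt5e also had a negative difference once mutant CB 4 and 5 were left out (-0.14, -0.06, -0.02, -0.04 and -0.16).

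**Figure D4:**
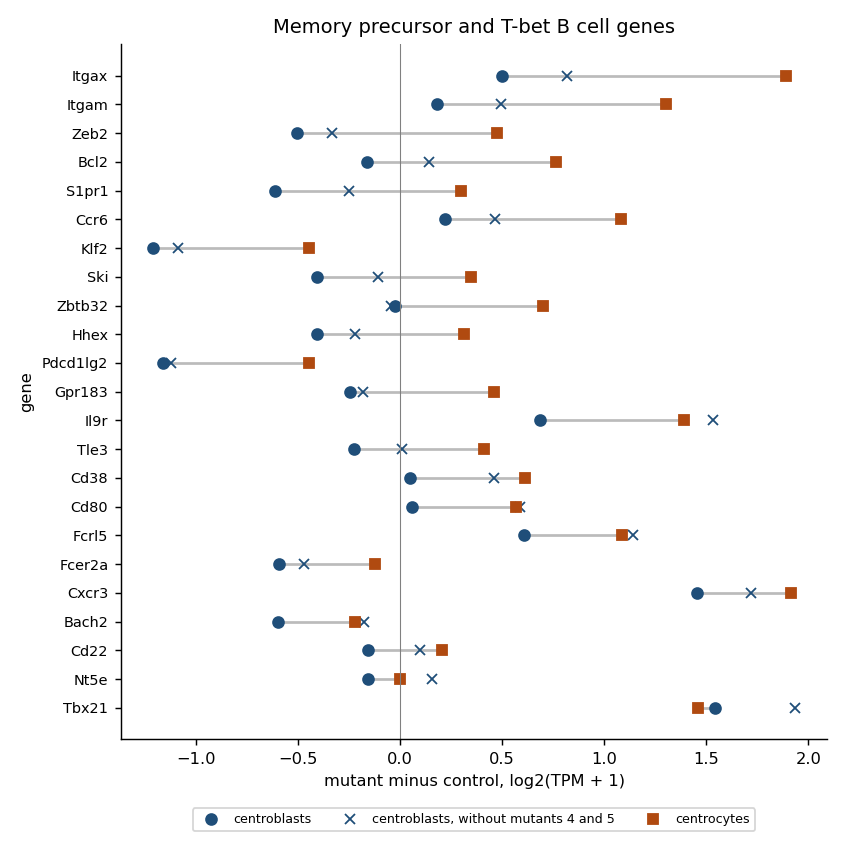
Genotype effect, mutant minus control in log2(TPM + 1), of 23 of the 24 tested memory precursor and T-bet B cell genes in centroblasts (circles), centroblasts without mutant libraries 4 and 5 (crosses) and centrocytes (squares). For 22 of the 23 genes drawn the square lies to the right of the circle, and for 17 to the right of the cross.

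Markers of naive, marginal zone and B1 cells moved with this list, and 6 of its members are shared with it. Of their 19 tested genes 10 were positive at the unadjusted level and 0 negative (median 0.61), and 5 and 0 without mutant CB 4 and 5 (median 0.38). The summed level of the markers was 815 to 1066 TPM in control CB, 506 to 860.5 TPM in mutant CB, 1591 to 2361 TPM in control CC and 2053 to 2411 TPM in mutant CC, and all 19 were above 1 TPM in at least 1 library. The part of other B cells in the sort in these differences was not tested. In bulk samples fewer cells of a type and less RNA per cell cannot be told apart. Markers of macrophages, monocytes and neutrophils, of which Ctsd, Mpeg1 and Hmox1 were the most abundant, summed to 141 to 174 TPM in control CB and 135 to 231 TPM in mutant CB. In centrocytes these markers summed to 290.1 to 517 TPM in controls and 254 to 533 TPM in mutants. None of their 15 tested members was under the unadjusted level in either direction, and their median difference was -0.16 with 20 libraries and -0.51 without mutant CB 4 and 5. Lyz1 and Timd4 stayed under 1 TPM throughout. Erythroid markers summed to 23.8 to 275 TPM in control CB, 326 to 819 TPM in mutant CB, 43.0 to 276 TPM in control CC and 236 to 588 TPM in mutant CC, with a median effect of 1.31 in centroblasts and 1.21 in centrocytes. The median difference of this list was -0.05 with 20 libraries and -0.41 without mutant CB 4 and 5. In both fits 0 of its 6 tested members lay under the unadjusted level, and Hba-a1 and Hba-a2 were at 0 in all libraries. Among T and NK cell markers, which summed to 337 to 506 TPM in centroblasts and 610 to 763 TPM in centrocytes, 1 of 7 was negative (median -0.10, and -0.29 without mutant CB 4 and 5), and Cd4, Cd8a, Icos, Il7r and Ncr1 stayed under 1 TPM. The most abundant of them were Cxcr5, Lck and Cd5. Cd5 is also on the list of naive, marginal zone and B1 markers, so the sum is not one of T and NK cells alone.

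In 4 other lists the counts were far lower without mutant CB 4 and 5. Long transcripts of chromatin and signalling genes had 13 of 35 members positive and 0 negative (median 0.71). This was 1 of 35 (median 0.20) without mutant CB 4 and 5. Prkdc, the catalytic subunit of DNA-dependent protein kinase, held 11.5 to 19.5 TPM in control CB and 15.1, 10.1, 9.70, 6.02 and 4.22 TPM in mutant CB libraries 1 to 5. Cytosolic ribosomal protein genes had 17 of 54 members negative and 0 positive (median -0.28), and 0 in either direction without the 2 libraries (median -0.10). Rps18 of this list held 1175 to 1464 TPM in control CB and 1307, 1384, 1483, 1803 and 2287 TPM in mutant CB. Respiratory chain and ATP synthase genes had 1 positive and 8 negative of 53 (median -0.22), and 0 of either without the 2 libraries (median -0.06). MYC and ribosome biogenesis genes had 11 of 30 positive (median 0.29), and 2 without them (median 0.15). The medians of the first 3 lists came nearer to that of all genes without the 2 libraries, while that of MYC and ribosome biogenesis lay 0.11 above it in both fits.

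The MYD88 pathway list, the receptors, adaptors and kinases around MYD88, had 6 of 30 members positive and 0 negative (median 0.35), and 1 and 0 without mutant CB 4 and 5 (median 0.08). Myd88 itself had effects of -0.10 and 0.25 and a difference of 0.35 ± 0.14 (SE, adjusted p = 0.403), or 0.22 without the 2 libraries. Irak3, an inhibitor of the pathway, had -0.63 and 0.27, with a difference of 0.90 and of 0.80 without them. NF-kB targets had 4 of 31 positive and 0 negative (median 0.14, but -0.07 under median-of-ratios), and 1 in each direction without mutant CB 4 and 5. Tnf of this list, the tumour necrosis factor gene, held 15.3 to 18.7 TPM in control CB, 10.02 to 18.7 TPM in mutant CB, 30.2 to 35.5 TPM in control CC and 37.6 to 46.6 TPM in mutant CC. Its difference was 0.58 (adjusted p = 0.403), and 0.40 without mutant CB 4 and 5. Immediate early and AP-1 genes had 3 of 28 positive and 0 negative (median 0.16, and -0.04 under median-of-ratios), with median effects of -0.63 in centroblasts and -0.40 in centrocytes. The counts of this list were again 3 and 0 without mutant CB 4 and 5 (median 0.01). Type I interferon genes had 3 of 29 positive and 0 negative (median 0.29), and 4 and 0 without mutant CB 4 and 5 (median 0.19).

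The zone programmes themselves had medians below that of all genes. Light zone genes had 6 of 29 positive and 0 negative (median 0.06, but -0.09 under median-of-ratios and -0.04 without mutant CB 4 and 5), and 1 in each direction without these libraries. Dark zone genes had 2 positive and 1 negative of 17 (median -0.13), and 1 positive and 5 negative without mutant CB 4 and 5 (median -0.19). G2 and M phase genes had 0 positive and 5 negative of 30 (median -0.02), and 0 and 6 without them (median -0.20). Of this last list, Birc5, a survival and mitosis gene, had effects of 0.06 and -0.26 and the securin gene Pttg1 0.11 and -0.20. Germinal centre identity genes had 2 positive and 3 negative of 27 (median 0.15), and 0 and 4 without mutant CB 4 and 5 (median -0.10). Mef2b, a transcription factor of germinal centre B cells, was one of the negative ones. It held 268 to 532 TPM in control CB and 424 to 625.4 TPM in mutant CB, an effect of 0.52 (adjusted p = 0.0324), and 366 to 452 TPM in control CC and 379.9 to 462 TPM in mutant CC, an effect of 0.02. Its difference was -0.49 (adjusted p = 0.403), and -0.53 without mutant CB 4 and 5.

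**Figure D5:**
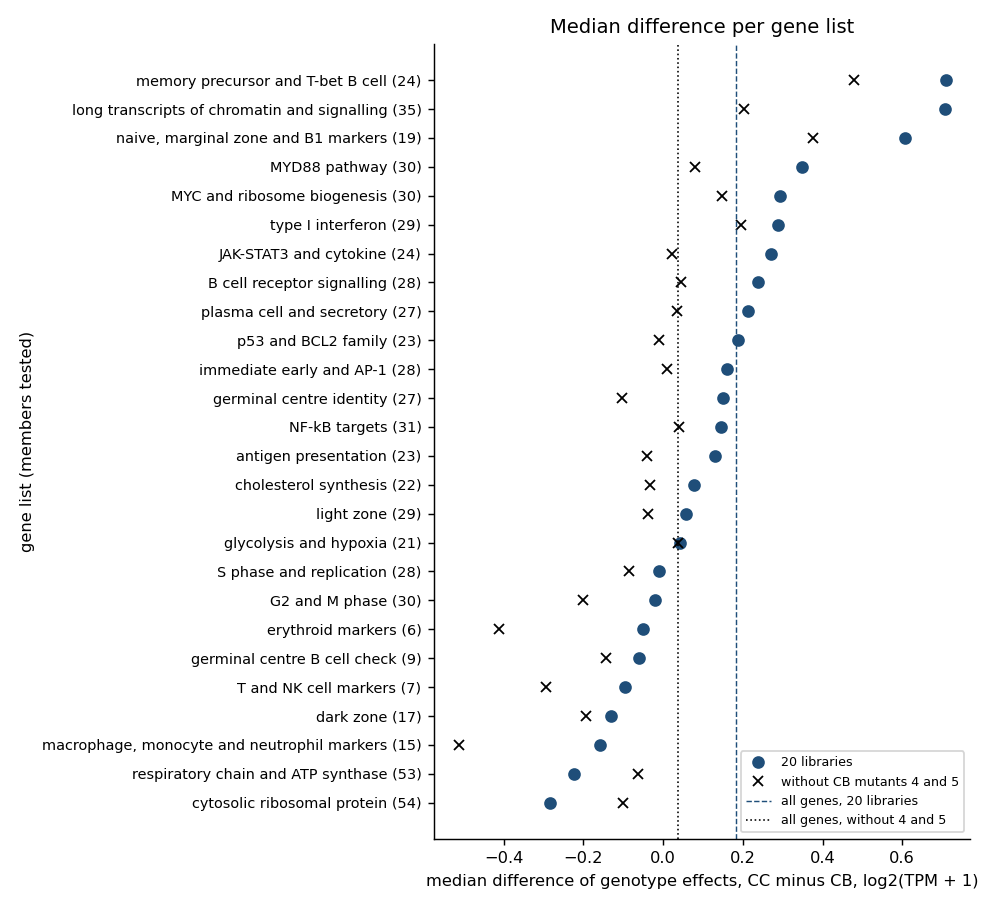
Median difference of the genotype effects, centrocytes minus centroblasts in log2(TPM + 1), for 26 gene lists with 20 libraries (dots) and without mutant CB 4 and 5 (crosses), beside the medians of all genes (vertical lines at 0.18 and 0.04). The memory precursor list stays at 0.48 without the 2 libraries, while the long transcript list moves from 0.71 to 0.20 and the ribosomal protein list from -0.28 to -0.10.

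Regulators of germinal centre fate were given values whether or not they passed, and none of their differences did. Bcl6, the repressor that defines germinal centre B cells, had effects of -0.46 and -0.29 and a difference of 0.16, which was -0.14 without mutant CB 4 and 5. Prdm1, which drives plasma cells, had 0.56 and 1.16, with a difference of 0.60 and of 0.06 without them. Its lowest mutant values were those of libraries 4 and 5 in both cell types, 0.967 and 1.01 TPM in CB and 4.92 and 5.83 TPM in CC. Leaving out mutant CB 4 and 5 alone therefore did not treat the 2 cell types alike. The step from CB to CC of same-numbered libraries was 1.04 to 1.55 in controls and 1.59 to 2.22 in mutants (replicate block, adjusted p = 0.182). Irf4, a factor of activated B cells and plasma cells, had -0.38 and 0.19, with 0.57 and 0.04. Myc had -0.03 and 0.20, with 0.23 and -0.15. Cd40, the receptor for T cell help, had 0.19 and 0.21 (difference 0.02, 95% interval -0.18 to 0.21), and the activation marker gene Cd83 -0.00 and -0.18 (difference -0.18, and -0.37 without mutant CB 4 and 5). Cd86, a gene of the sort gates, had -0.41 and -0.36 (difference 0.05, and 0.20 without them). Fas and Ptprc, which encode gate proteins positive in both cell types, had differences of -0.19 and 0.45, the latter 0.17 without mutant CB 4 and 5.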

How the data were processed

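RNA of sorted germinal centre B cells was sequenced from stranded mRNA libraries, per the labels' protocols. The deposited files hold 1 TPM value per gene symbol and library. STAR and mm10 are named in the submitters' processing notes. Which annotation, counting tool and versions were used is not stated in these sources. TPM keeps no read depth, so no counting interval is given. Of 23382 symbols 20916 were current in RefSeq and 2207 were older names, and positions are from GENCODE M21 (GRCm38, the assembly of mm10).

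Libraries were grouped by title. Log2(TPM + 1) values were fitted in R 4.3.3 by limma 3.58.1 (4 group means, 16 residual degrees of freedom, moderated with the trend and robust options, two-sided). Benjamini-Hochberg adjustment ran over 11386 genes that reached 1 TPM in 5 or more libraries. The fit was tested on simulated data. The members, the 27 gene lists (716 of 723 members found) and the tests were chosen with earlier results of these data known. The values of 1 list member are not reported here.

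Genes named by rule were the largest differences among genes called with and without mutant CB 4 and 5, averaging 5 TPM or more in 1 group, then opposite and list members that were called, and 15 genes given whether called or not (Myd88, Cxcr4, Cd86, Fas, Ptprc, Fos, Tbx21, Itgax, Ccr6, Bcl6, Prdm1, Irf4, Myc, Cd40, Cd83). Receptor segments, numbered gene models, small RNA, mitochondrially encoded and Y-linked genes were left out. Since only Pafah1b3 met the first criterion, the other named genes were chosen after their values were seen, by p, by calls in both cell types, by calls under an alternative, or as the members of a list with the smallest p.

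Alternatives were a pseudocount of 0.1, no filter, a filter of 5 TPM, median-of-ratios and quantile scaling, no trend or robust fit, array weights, leaving out mutant CB 4 and 5 or each library in turn, and the replicate number as a block. Of same-numbered pairs of centroblast and centrocyte libraries, 4 of 5 in controls and 4 of 5 in mutants deviated together (correlation over 0.1). The range was -0.0168 to 0.259 in controls and -2.93e-05 to 0.269 in mutants. Libraries of different numbers averaged -0.0404 and -0.0433. Not every pair passed 0.1, and the labels do not say that a number marks a mouse, so the main fit did not use pairs. If the numbers do mark mice, that fit leaves out a pairing. The block called 14 genes where the main fit called 2.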

Additional observations from a re-analysis of the deposited data

Results flagged for a closer look

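Pafah1b3 (difference -0.75) and 8430410A17Rik (Hmces, -0.71) were the 2 genes whose genotype effect differed between the cell types by the test of the difference itself.

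Among 328 groups of 5 libraries of the named genes, 20 held 1 library far from the other 4, where chance gives about 1 in 20. Control CB 2 was the library apart in 7 of them, with 333 TPM for Bank1, 11.7 for Gpr174, 750.0 for Ptprc, 12.7 for Cflar, 422 for Ncl, 8.04 for Cd93 and 19.5 for Prkdc, each the highest of its group. Other centroblast values were 12.5 TPM for Tmem121 in control CB 4, 77.8 for Gstt2 in control CB 3, 118.9 for Sepp1 in mutant CB 5, and 4.35 for Smad3 and 4.02 for Cd93 in mutant CB 1. In control centrocytes they were 386 TPM for Bank1 and 4.61 for Smad3 in library 1, 2.94 for Gbp7, 29.6 for Hs3st1 and 98.0 for Ccr6 in library 2, and 116 for Gstt2 in library 3. In mutant centrocytes they were 5.89 TPM for Fam82a1 in library 1 and 72.5 for Tbx21 in library 3.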

How the results depend on the processing

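With 20 libraries 2 genes were called for the difference and 0 for opposite effects, and the count of 2 held with a pseudocount of 0.1, without a filter and with a filter of 5 TPM. It was 0 with the trend and robust options off, 0 under median-of-ratios scaling, 1 under quantile normalization, 9 with array weights (0.079%), 4 without mutant CB 4 and 5, and 1 when these were left out together with median-of-ratios scaling. In turn, the opposite count was 1 with array weights (AA465934), 1 without mutant CB 4 and 5 and 1 with both changes (Gm13476). With each library left out, the number called ranged from 0 to 7 and the opposite count from 0 to 2. The count was 0 without control CB 1, 2 or 5, mutant CB 2 or 4, control CC 1, or mutant CC 1, 2 or 5, 1 without control CC 3, 3 without control CB 3, mutant CB 5 or control CC 5, and 7 without mutant CB 1. The array weight was 0.218 for mutant CB 4 and 0.0651 for mutant CB 5, against 0.492 to 2.59 for the rest. The cause of these changes was not tested.

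The replicate block, with the number within each genotype as pairs, called 14 genes (0.123%), 6 of them opposite. It called 8 and 3 without mutant CB 4 and 5, and 6 and 4 with median-of-ratios scaling, a setting chosen after seeing the data. Named genes called with the block and not without it, with 20 libraries, were Sdc4, Cd36, Cd97, Grap2, Anxa6, Gbp7, Il27, St8sia6 and Itga4. Own numbers correlated best for 4 of 5 control and 2 of 5 mutant pairs.

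Of 2616 values of 82 named genes, 2488 kept sign and side of the threshold, 28 lost and 31 gained a call, and 69 turned sign, all in differences that were not called. Under median-of-ratios scaling Aldh2 was -0.13, Bcl6 -0.050, Cd40 -0.20, Cd86 -0.17, Neurl3 -0.20, Sepp1 -0.15 and Tsc22d3 -0.085, and the same with the block. Under quantile normalization Cd40 was -0.078, Cd86 -0.062, Dusp1 -0.10, Fos -0.014, Neurl3 -0.14, Sepp1 -0.10 and Tsc22d3 -0.19. With array weights Bcl6 was -0.079, Cd40 -0.016, Myc -0.086 and Xlr 0.11. Without mutant CB 4 and 5 Bcl6 was -0.14, Cd40 -0.038, Myc -0.15 and Neurl3 -0.0018, and with median-of-ratios as well Bcl6 was -0.17, Cd40 -0.068, Fos -0.019, Myc -0.18 and Neurl3 -0.031. With the replicate block and without mutant CB 4 and 5 the difference in Aldh2 was -0.0028, the difference in Cd86 was -9.84e-05, and the others were Bcl6 -0.19, Cd40 -0.018, Dusp1 -0.068, Fos -0.13, Myc -0.10, Tsc22d3 -0.033 and Xlr 0.13. With 1 library left out, values on both sides of 0 ranged from -0.014 to 0.046 for Cd40, -0.037 to 0.14 for Cd86, -0.25 to 0.090 for Eps8l1, -0.041 to 0.062 for Neurl3 and -0.27 to 0.15 for Tbx21.

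TPM keeps no depth, so how far depth limits low genes such as Il27, Gdf11 and Itgax is unknown. With 5 libraries a group, the smaller differences lie within the intervals, and the labels do not say which libraries share a mouse.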
